A study of Aedes aegypti with 19 samples.

Results

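A set of 141 protein coding genes of the yellow fever mosquito *Aedes aegypti* was lower in the ovaries of unfed females on day 20 than on day 3, and it is described here by level, timing and response to a blood meal. The genes were chosen by their sugar-fed (SF) values in CPM (gene reads of a library scaled to a common total of 1000000). Of the 19381 genes in the files, 9263 were protein coding, were listed under an AAEL identifier only and had a mean of at least 1 CPM on SF day 3. Of these, 206 had an SF day 20 mean at or below 0.55 times the SF day 3 mean, and in 169 of them all SF day 20 libraries also lay below all SF day 3 libraries. A last criterion asked for a blood-fed (BF) to SF ratio of means below 1.8 on at least 1 of the 3 days, which removed 28 genes and left 141. In the other direction, 24 protein coding genes had an SF day 3 mean at or below 0.55 times the SF day 20 mean without overlap. They had at least 1 CPM on SF day 20. No criterion on BF to SF ratios was applied there, so this count stands beside the 169 and not the 141. The SF day 3 and SF day 20 values define the set, so its fall in SF ovaries is a description and was not tested.

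The study followed ovaries of females of a laboratory colony from Poza Rica, Mexico, which were 4 to 7 days old when part of them took a single meal of sheep blood. SF control females took none, and all females were kept on 10% sucrose. Ovaries were dissected on days 3, 10 and 20 after the meal, pooled within a sample and freed of remaining eggs, and ribosomal RNA was depleted before sequencing. There were 3 libraries each (replicates 1, 2 and 4) for SF day 3, SF day 10, SF day 20, BF day 10 and BF day 20, and 4 for BF day 3, where replicate 3 was added. BF females had a site for egg laying. The paper states that a significant number had laid by the early collection and most by day 10. The BF day 3 libraries thus stand at the end of the egg cycle, with females before and after laying, and the later ones mostly after it. The age of a female and the time since the meal cannot be told apart.

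In a female mosquito without blood, the ovary holds follicles that have grown to a resting stage before yolk uptake. Each follicle contains an oocyte and its sister nurse cells inside a layer of follicle cells, and a blood meal releases it into yolk uptake, eggshell formation and egg laying, after which the next follicle takes its place. Follicles that wait can also be resorbed. In RNA from a whole organ, fewer cells of a type and less RNA per cell cannot be told apart. The 141 genes carry no symbol, product name or function in the files or the reference table used, so no role is given for any of them. Matching by position (at least 80% reciprocal overlap) paired 131 of the 141 with a RefSeq gene of the same AaegL5.0 assembly, and all 131 were protein coding there.

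The libraries held between 34651820 and 56274885 read pairs on genes, of which 90.9% to 92.9% mapped uniquely. The share of pairs in introns was 9.11% to 13.2% on BF day 3 and 3.95% to 6.15% in all other groups. The summed level of 8 germ line genes (6 PIWI genes, *osk* and *mael*, none of them in the set) was 5113 to 5647 CPM on SF day 3 and 4657 to 4891 CPM on SF day 20. A summed level of 7 prophenoloxidase genes, enzymes made by blood cells, was 6.72 to 10.0 CPM and 6.44 to 7.22 CPM in the same groups, with none of the 7 genes at 0. The germ line sum was 5299.9 to 5576.4 CPM on BF day 10 and 4703.7 to 5154.5 CPM on BF day 20. The prophenoloxidase sum was 7.61 to 8.77 CPM and 6.96 to 9.37 CPM on these BF days. The part of these shifts in the values of the set was not tested, and markers of muscle, fat body, midgut and nerve could not be followed because the files give no symbols for them.

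The level of the set was followed through all 19 libraries, of which those of SF days 3 and 20 chose the genes. Each gene's level in a library was set against its SF day 3 mean on the log2 scale, and the median over the 141 genes was taken per library. It was 0.02, −0.13 and 0.04 in the SF day 3 libraries, −0.60, −0.58 and −0.47 in those of SF day 10, and −1.03, −1.08 and −0.98 in those of SF day 20. In BF ovaries it was 0.31, 0.33, 0.45 and 0.33 on day 3, −0.25, −0.12 and −0.26 on day 10, and −0.57, −0.47 and −0.67 on day 20. The order of the group means was BF day 3 (0.36 ± 0.06, SD, n = 4), SF day 3 (−0.02 ± 0.09, n = 3), BF day 10 (−0.21 ± 0.08), SF day 10 (−0.55 ± 0.07), BF day 20 (−0.57 ± 0.10) and SF day 20 (−1.03 ± 0.05). The libraries of SF day 10 and BF day 20 overlapped, as did those of SF day 3 and BF day 10 through 1 library each, and the other neighbours in this order did not overlap. The same-day distance between BF and SF ovaries rests on the SF libraries that chose the genes and is a description. The same median over the other protein coding genes at or above 1 CPM stayed between −0.13 and 0.06 in all libraries. The set took 0.138% of all gene reads on SF day 3, 0.0664% on SF day 20 and 0.245% on BF day 3.

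**Figure D1:**
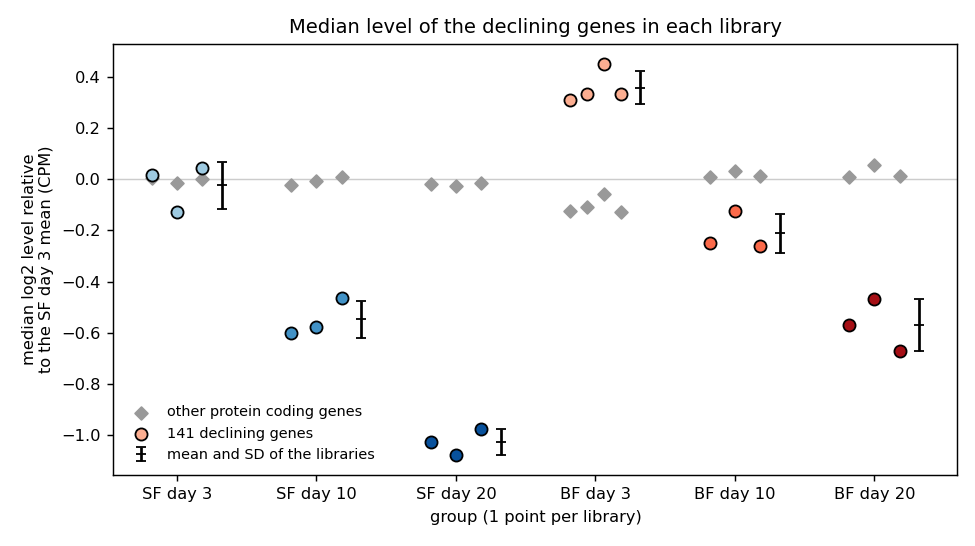
Median over the 141 genes of the log2 level relative to the SF day 3 mean, 1 circle per library, with the mean and SD of the libraries of a group beside them; grey diamonds give the same median over the other protein coding genes. The circles step down from day 3 to day 20 in both diets, and the BF day 20 libraries (−0.67 to −0.47) lie at the height of the SF day 10 libraries (−0.60 to −0.47).

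Most of the genes were of low abundance. SF day 3 means ran from 1.02 to 163 CPM with a median of 4.17 CPM, against 39.2 CPM for the 9122 other protein coding genes, and 80 of the 141 lay under 5 CPM. Per length, exon reads gave between 0.0223 and 30.4 RPKM on SF day 3 with a median of 1.45 RPKM. The median coefficient of variation among the SF day 3 libraries was 21.3%, and it exceeded 50% in 5 genes. Just inside the ratio of 0.55 lay AAEL001855 and AAEL026237 (both 0.549), and just outside lay AAEL023810 and AAEL026843 (both 0.551). The genes nearest to the level criterion were AAEL004951 (1.02 CPM) and AAEL007483 (1.03 CPM).

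**Figure D2:**
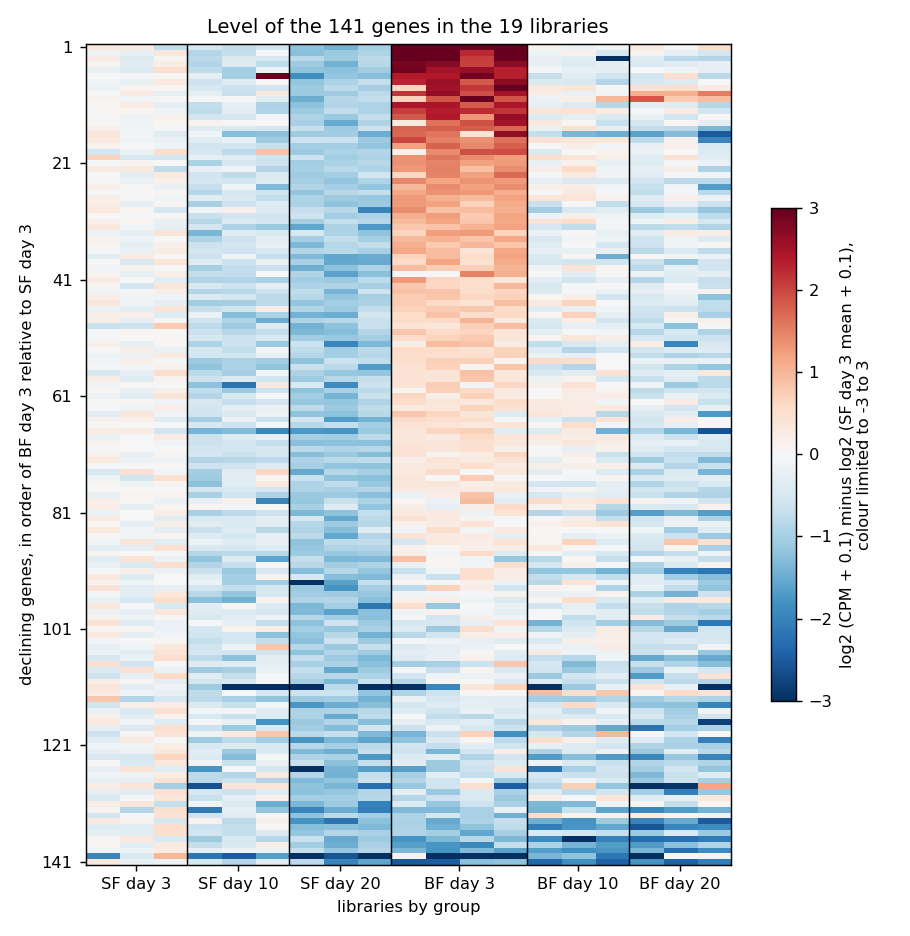
Level of each of the 141 genes (rows) in each of the 19 libraries (columns, by group) as log2 (CPM + 0.1) relative to the SF day 3 mean; blue is lower and red is higher, with the colour limited to −3 to 3. Rows are in order of the BF day 3 mean relative to SF day 3, which reached 10.9 at the top, and the SF day 20 columns are below the SF day 3 columns in every row because of how the genes were chosen.

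The course of the fall in SF ovaries is given as a description. SF day 3 and SF day 20 values chose the genes, so a day 10 mean between them follows in part from that choice. The same holds for the counts of libraries without overlap at each step. On day 10 the SF mean lay between those of days 3 and 20 in 129 genes, at or above the day 3 mean in 6 and at or below the day 20 mean in 6. The median level relative to SF day 3 was 0.680 on SF day 10 and 0.477 on SF day 20. All SF day 10 libraries lay below all SF day 3 libraries in 73 genes (11.2% of all tested genes), all SF day 20 libraries below all SF day 10 libraries in 73 (8.54%), and both held in 35. In the edgeR fit over all 13904 tested genes, which included all 141, SF day 20 was called lower than SF day 3 at an FDR p-value under 0.05 in 106 of the 141 genes, with 7.03% of all tested genes called lower, and nothing is read from this contrast because it chose the genes. The steps share libraries with it and are also description: 4 genes were called lower on SF day 10 than on day 3 (0.0647% of all genes) and 4 on SF day 20 than on day 10 (0.0288%), with median log2 fold changes of −0.53 and −0.51. Same-numbered libraries of SF days 3 and 10 deviated together, and with the number as a block 15 genes were called lower at that step. The share over all genes in the block fit is not given, so nothing is read from this count.

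Of the 10 genes with the highest SF day 3 level, 8 were also called lower between BF days 10 and 20. The share called lower was 2.35% of all tested genes and 3.58% of the other protein coding genes from 20 to under 1000 CPM. Of the 8 calls, 4 were lost without some single library. AAEL006211, a gene of 7 exons on the minus strand of chromosome 2 (49102568 to 49124285), was the highest both in CPM and per length. It measured 156, 164 and 168 CPM on SF day 3, 113, 103 and 119 on SF day 10 and 78.4, 73.5 and 79.7 on SF day 20. In BF ovaries it measured 238, 259, 279 and 209 CPM on day 3, 174, 208 and 186 on day 10 and 113, 108 and 105 on day 20. No library of a later day overlapped one of an earlier day in either diet. Between BF days 10 and 20 it fell by 0.79 ± 0.08 (log2 fold change, SE; FDR p-value 0.00024, edgeR).

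AAEL001399 (chromosome 2, 47853216 to 47872332, plus strand, 6 exons) followed the same course at a lower level. It measured 64.5, 65.3 and 67.8 CPM on SF day 3, 43.0, 43.7 and 50.4 on SF day 10 and 32.8, 28.8 and 28.4 on SF day 20. In BF ovaries it stayed near its day 3 level on day 10 and was lower on day 20: 79.1, 81.7, 93.2 and 78.3 CPM on day 3, 74.0, 74.4 and 73.0 on day 10, and 48.8, 36.0 and 41.1 on day 20. The fall from BF day 10 to day 20 was 0.80 ± 0.09 on the log2 scale (FDR p-value 0.0006, edgeR).

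AAEL011911 (chromosome 3, 337625668 to 337629620, minus strand, 4 exons) had the tightest libraries of these genes on SF day 20. Its SF values were 30.5, 28.1 and 26.0 CPM on day 3, 17.9, 19.1 and 17.2 on day 10 and 11.78, 11.99 and 11.85 on day 20. Its BF values were 36.5, 36.0, 38.9 and 35.5 CPM on day 3, 31.9, 36.0 and 32.6 on day 10 and 23.7, 23.6 and 20.3 on day 20, so that all BF libraries of day 20 still lay above all SF libraries of day 10. The fall from BF day 10 to day 20 was 0.57 ± 0.08 on the log2 scale (FDR p-value 0.0012, edgeR). AAEL011648 on the same chromosome (368833148 to 368850681, minus strand) measured 30.3, 29.9 and 30.5 CPM on SF day 3, 16.2, 15.4 and 16.4 on SF day 20, 28.03, 32.68 and 24.55 on BF day 10 and 19.9, 20.8 and 16.7 on BF day 20, a fall of 0.56 ± 0.09 (FDR p-value 0.0026, edgeR) between the BF days.

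AAEL008773, AAEL014510, AAEL008879 and AAEL021738 were the other 4 of these 10 genes called lower on BF day 20 than on day 10, with log2 fold changes from −0.86 to −0.56 and FDR p-values between 0.012 and 0.038 (edgeR). These are the 4 calls that a single library could end, and AAEL008773 had the widest BF day 20 libraries, at 75.4, 120.0 and 71.9 CPM beside 121, 155 and 124 on BF day 10. The remaining 2 were not called. AAEL005187 measured 57, 59.97 and 51.27 CPM on BF day 10 and 42.4, 52.3 and 30.0 on BF day 20 (log2 fold change −0.43 ± 0.16, FDR p-value 0.12, edgeR). AAEL002391 varied more than 3-fold among its BF day 3 libraries, with 44.7, 27.6, 85.3 and 53.9 CPM, and its BF day 20 libraries overlapped those of BF day 10.

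**Figure D3:**
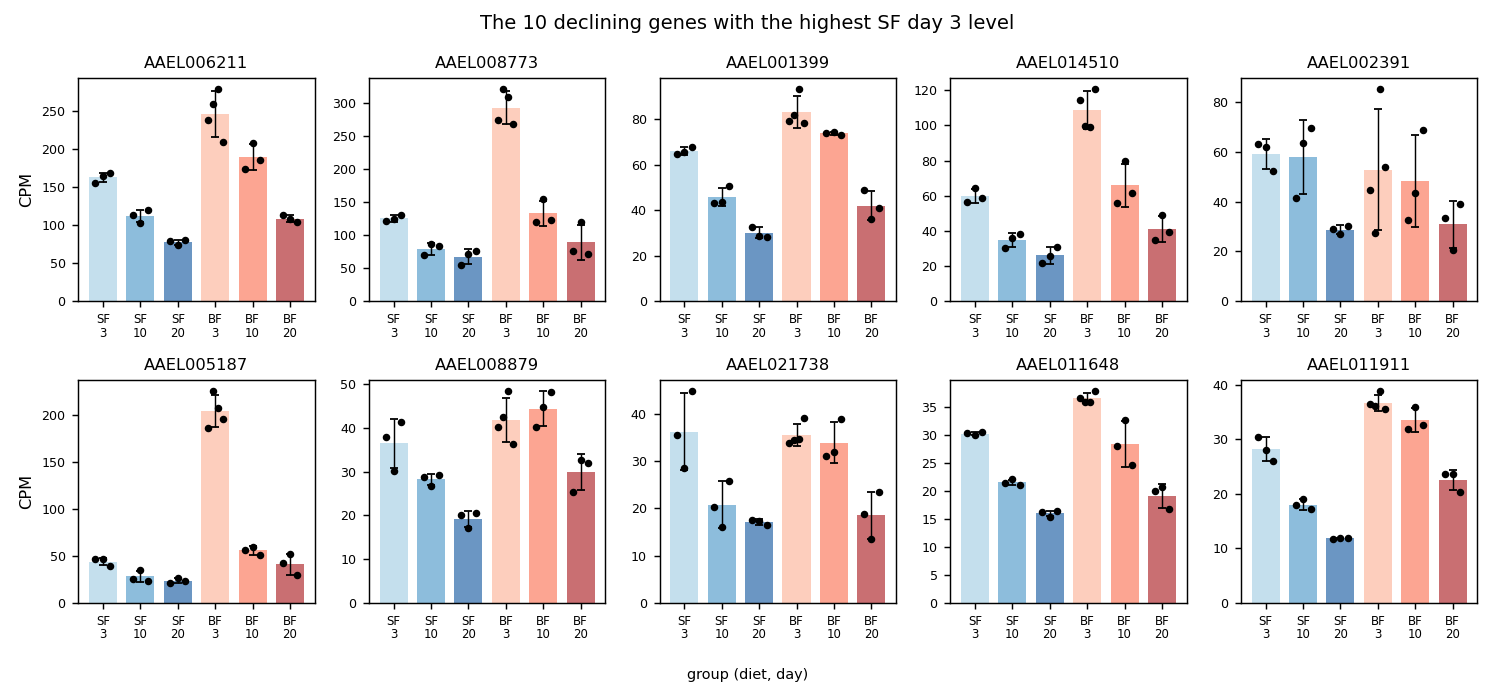
CPM of the 10 genes with the highest SF day 3 level in the 6 groups; bars are group means, whiskers the SD and points the libraries (n = 3, and 4 for BF day 3). SF bars fall from day 3 to day 20 in all 10 panels, and in AAEL006211 the BF bars fall from 246 over 189 to 108 CPM.

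Whether the set also declined in ovaries that had been through an egg cycle was followed between BF days 10 and 20, a contrast that the choice of genes used only through the ratio of BF to SF means. Of the 141 genes, 21 were called lower on BF day 20 (14.9%), where 2.35% of all tested genes were called lower, and 1 was called higher (0.709%), where 4.52% of all were. The median log2 fold change was −0.39 (quartiles −0.56 and −0.04), against −0.01 over all tested genes, and 111 of the 141 values were negative, against 52.1% of all genes. All BF day 20 libraries lay below all BF day 10 libraries in 43 of the 141 (30.5%), where 11.5% of all genes did so, and above them in 1, where 13.1% did. Among the other protein coding genes at or above 1 CPM, 2.88% were called lower and the median was 0.00. Those genes were more abundant than the set, and medians by level are given below. Without the criterion on BF to SF ratios, which leaves a choice by SF libraries alone, 26 of 169 genes were called lower.

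The share called lower rose with abundance. Of the 14 genes at or above 20 CPM on SF day 3, 10 were called lower, against 3.58% of the other protein coding genes from 20 to under 1000 CPM. Between 5 and 20 CPM it was 6 of 47 (others 2.23%), and between 1 and 5 CPM 5 of 80 (others 0.702%). The median log2 fold change also differed by level. From 20 to under 1000 CPM it was −0.60 in the set and 0.03 in the others. Between 5 and 20 CPM it was −0.43 and −0.04, and between 1 and 5 CPM −0.21 and −0.10. The count of lower calls in the whole set rests on 2 libraries. It was 5 without BF day 10 replicate 2, where 0.232% of all genes were called lower, and 9 without BF day 20 replicate 4, where 0.662% were. The median log2 fold change of the whole set stayed between −0.40 and −0.33 whichever library was left out. Same-numbered libraries of BF days 10 and 20 deviated together as well, and with the number as a block 30 of the 141 and 580 of all genes (4.17%) were called lower. The other counts and the p-values of single genes come from the fit without the block.

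**Figure D4:**
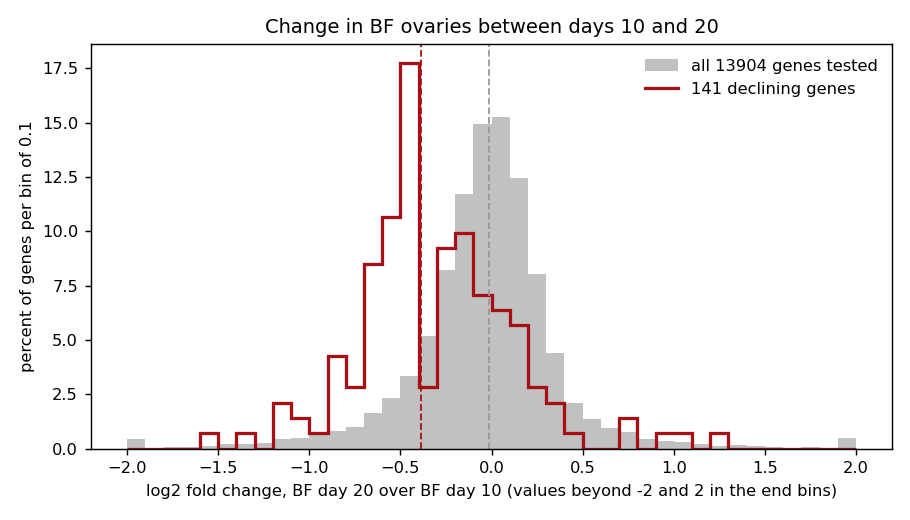
Distribution of log2 fold changes of BF day 20 over BF day 10 in bins of 0.1, as a percentage of genes, for all 13904 tested genes (grey) and the 141 genes (red line), with dashed lines at the medians of −0.01 and −0.39. The red line is shifted to the left, and most of it overlaps the grey distribution.

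The 3 largest called falls between BF days 10 and 20 were in genes of low abundance. AAEL000603 (chromosome 2, 285266212 to 285268374, minus strand, 4 exons) measured 0.975, 2.15 and 0.997 CPM on BF day 10 and 0.562, 0.55 and 0.286 on BF day 20, beside 0.941, 1.61 and 1.70 on SF day 3 and 0.355, 0.452 and 0.526 on SF day 20. The 2 BF groups did not overlap, and the fall was 1.54 ± 0.34 on the log2 scale (FDR p-value 0.014, edgeR). AAEL004707 measured 1.05, 1.71 and 0.997 CPM on BF day 10 and 0.711, 0.669 and 0.409 on BF day 20, a fall of 1.05 ± 0.24 (FDR p-value 0.015, edgeR), with 89.4% of its reads in introns. AAEL005753 measured 1.33, 1.73 and 1.08 CPM on BF day 10 and 0.786, 0.813 and 0.594 on BF day 20, a fall of 0.91 ± 0.25 (FDR p-value 0.034, edgeR). In all 3 genes replicate 2 was the highest on BF day 10, and none of the 3 calls held without it or without BF day 20 replicate 4 (FDR p-values up to 0.097 for AAEL000603, 0.57 for AAEL004707 and 0.17 for AAEL005753 over the settings tried). The calls of AAEL004707 and AAEL005753 were also lost on exon reads alone, and that of AAEL005753 without a count filter and without BF day 10 replicate 1 or BF day 20 replicate 1 or 2.

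The log2 fold change between BF days 10 and 20 was positive in 30 of the 141 genes, of which 1 was called higher. AAEL008303 (chromosome 1, 96173115 to 96188750, plus strand, 3 exons) measured 15.2, 17.8 and 12.4 CPM on SF day 3, 12.3, 9.29 and 18.7 on SF day 10 and 7.11, 7.19 and 8.69 on SF day 20. In BF ovaries it measured 67.1, 95.6, 58.4 and 85.9 CPM on day 3, 17.4, 13.1 and 14.2 on day 10 and 32.0, 31.7 and 43.8 on day 20. Its BF day 20 libraries thus lay above both those of BF day 10 and those of any SF day, with a rise of 1.27 ± 0.24 between BF days 10 and 20 (FDR p-value 0.0088, edgeR), which missed the threshold without BF day 10 replicate 2 (FDR p-value 0.058).

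On BF day 3 the set was spread widely. The levels below are a description. They are set against the SF day 3 means that chose the genes, and BF to SF ratios also entered the choice. The other protein coding genes were not chosen in this way and were more abundant (median 39.2 CPM on SF day 3, against 4.17 CPM in the set). Relative to SF day 3, the median gene stood at 1.29 (quartiles 0.849 and 1.93), 94 genes had a higher and 47 a lower mean, and 34 (24.1%) were at or above 2 times the SF day 3 mean, against 14.03% of the other protein coding genes. The ratio reached 10.9 in AAEL010884 (14.4, 15.1, 10.2 and 15.1 CPM on BF day 3, beside 1.54, 1.51 and 0.710 on SF day 3), which was picked after its values were seen. By BF day 10 no gene was at 2 times the SF day 3 mean and the median stood at 0.895. By BF day 20 the median was 0.685, with 37 genes at or below 0.55 times and 9 at or above the SF day 3 mean.

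Against BF day 3, 95 of the 141 genes were called lower on BF day 20, where 36.2% of all tested genes were called lower, and 3 were called higher, where 30.6% were. The median log2 fold change was −0.97, against −0.13 over all genes. On BF day 10, 68 were called lower (31.2% of all genes) and 4 higher (29.8%), with medians of −0.55 and −0.05. Both contrasts mix age with the end of the egg cycle. BF means also entered the choice of genes through the BF to SF ratios, and counts without that criterion are not given for these contrasts. Group means fell from BF day 3 over day 10 to day 20 in 90 of the 141 genes (63.8%), against 28.7% of the other protein coding genes. Those genes were more abundant (median 39.2 CPM on SF day 3, against 4.17 CPM), and the shares were not matched by level.

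The 3 largest called falls from BF day 3 to day 20 followed a high mean BF day 3 level. In each of the 3 genes the added replicate 3 was the lowest BF day 3 library. In AAEL005759 it was near the highest SF day 3 library (2.65 beside 2.54 CPM). AAEL005759 measured 6.65, 6.15, 2.65 and 12.8 CPM on BF day 3 and 0.580, 0.741 and 0.266 on BF day 20 (log2 fold change −3.74 ± 0.52, FDR p-value 7.0e-06, edgeR), beside 2.54, 1.839 and 1.499 on SF day 3. AAEL008651 measured 17.5, 12.2, 7.28 and 16.2 CPM on BF day 3 and 1.55, 1.20 and 0.962 on BF day 20 (−3.41 ± 0.32, FDR p-value 3.3e-08, edgeR). AAEL027549 measured 102, 72.7, 36.7 and 79.2 CPM on BF day 3 and 6.70, 4.88 and 4.67 on BF day 20 (−3.73 ± 0.63, FDR p-value 0.0001, edgeR), but only 0.118% of its reads were unique, so its reads cannot be told apart from those of another copy.

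Only 3 genes were called higher on BF day 20 than on BF day 3. AAEL022475 measured 8.55, 11.2, 8.22 and 5.83 CPM on BF day 3, 23.5, 17.4 and 17.0 on BF day 10 and 18.6, 16.7 and 14.8 on BF day 20, a rise of 1.00 ± 0.23 from day 3 to day 20 (FDR p-value 0.00098, edgeR). Its BF day 20 libraries reached the range of SF day 3 (10.9, 15.6 and 21.9 CPM), and 55.2% of its reads were unique. AAEL024750 (0.706, 0.895, 1.48 and 1.47 CPM on BF day 3 and 1.48, 2.22 and 1.97 on BF day 20) and AAEL006128 (2.25, 2.68, 3.09 and 1.89 CPM and 3.18, 3.39 and 5.26 CPM) changed by 0.74 ± 0.28 and 0.69 ± 0.24 on the log2 scale (FDR p-values 0.025 and 0.017, edgeR), and both calls were lost without BF day 20 replicate 4, that of AAEL024750 also under upper-quartile scaling and without BF day 3 replicate 1 or 2 or BF day 20 replicate 2, and that of AAEL006128 without BF day 3 replicate 4.

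**Figure D5:**
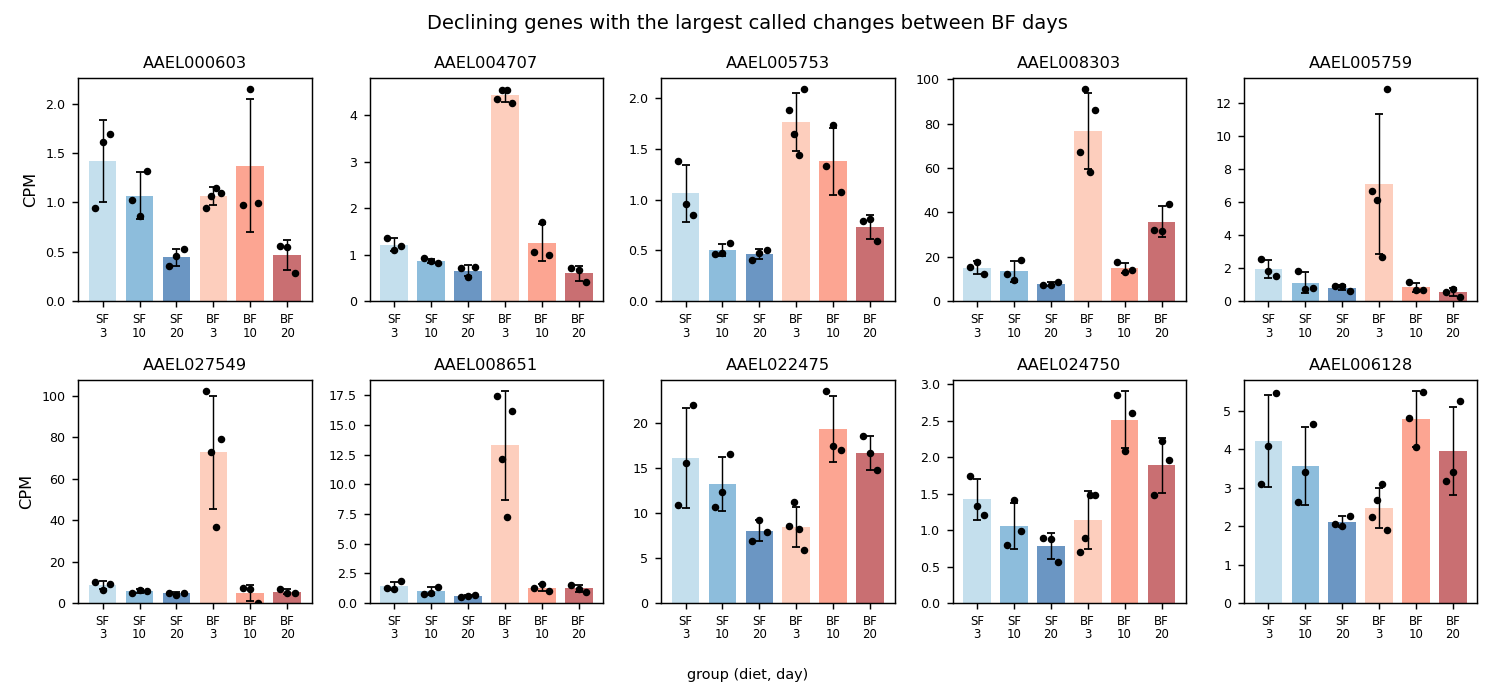
CPM of the genes with the largest called changes between BF day 20 and BF day 10 or BF day 3; bars are group means, whiskers the SD and points the libraries (n = 3, and 4 for BF day 3). AAEL008303 rises again from BF day 10 (14.9 CPM) to BF day 20 (35.8 CPM), while the bars of AAEL005759, AAEL027549 and AAEL008651 are high on BF day 3 only.

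BF and SF means of the same day are given side by side as a description, since the genes were chosen for low SF day 20 values, which raises the BF to SF ratio of that day. The BF mean was above the SF mean in 94 genes on day 3, 98 on day 10 and 122 on day 20 (86.5%, against 56.2% of the other protein coding genes), on all 3 days in 76 and on none in 11. In the edgeR fit, 59 were called higher and 15 lower on day 3 (32.3% and 32.6% of all genes), 27 and 8 on day 10 (8.55% and 10.7%) and 29 and 4 on day 20 (9.31% and 12.1%), with median log2 fold changes of 0.32, 0.35 and 0.44. These contrasts use the SF libraries that chose the genes, and the ratios entered the choice, so nothing is read from the counts. Of the 11 genes that were lower in BF ovaries on every day, AAEL001444 (named after its values were seen) measured 2.94, 3.07 and 5.70 CPM on SF day 3, 1.56, 1.606 and 1.495 on SF day 20, and 0.580, 0.932 and 1.00 on BF day 20.

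Among the 10 genes with the lowest ratio of SF day 20 to SF day 3, several rested on uneven libraries. The lowest ratio, 0.0792, was that of AAEL011275, which measured 0.901, 2.74 and 7.63 CPM on SF day 3 and 0.160, 0.543 and 0.190 on SF day 20, with 15.7% unique reads and 4.02, 0.202, 0.354 and 0.176 CPM on BF day 3. AAEL025876 (2.96% unique reads) measured 4.70, 2.84 and 3.35 CPM on SF day 3 and 0.0530, 2.04 and 0.042 on SF day 20. AAEL020468 (23.3% unique reads) measured 1.66, 1.88 and 0.651 CPM on SF day 3, and its BF day 20 libraries were at 0.0750, 0.0960 and 3.27. None of these 3 genes was called in any comparison between days of 1 diet, and in each of them libraries of 1 group differed more than 10-fold.

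The other 7 of these 10 had at least 95.0% unique reads. AAEL027356 measured 11.03, 5.619 and 14.54 CPM on SF day 3 and 2.54, 3.64 and 2.38 on SF day 20. AAEL021404 measured 13.1, 11.7 and 7.73 CPM and 3.06, 2.26 and 4.53, with 95.3% of its reads in introns. AAEL019718 (0.861, 1.39 and 1.12 CPM on SF day 3, 0.391, 0.317 and 0.337 on SF day 20), AAEL001905 (1.76, 2.76 and 2.29 CPM, then 0.604, 0.814 and 0.695) and AAEL026743 (1.22, 2.02 and 1.16 CPM, then 0.0360, 0.498 and 0.400) were of low abundance. AAEL026602 was even on SF day 3 (1.16, 1.12 and 1.18 CPM) and lower on SF day 20 (0.249, 0.452 and 0.421), but 1 SF day 10 library stood at 10.4 CPM beside 0.937 and 0.530 in the others.

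Median levels of reads in exons and in introns were both lower on SF day 20, which is given as a description. Gene reads of SF day 3 and SF day 20 chose the genes, and they are the sum of exon and intron reads. A lower level of these parts therefore follows in part from that choice, and nothing is read from their SF ratios. The median ratio of SF day 20 to SF day 3 was 0.473 for exon reads (132 genes at or above 0.5 CPM of exon reads) and 0.501 for intron reads (71 genes), against 1.00 and 0.813 in the other protein coding genes. The ratio was below 1 in all of these 132 and 71 genes, and genes under 0.5 CPM were left out. Exon levels did not follow gene reads in every gene. In 2 genes picked after their values were seen, AAEL006944 and AAEL009950, exon reads went from 2.13 to 1.88 RPKM and from 0.0223 to 0.0258 RPKM. Between BF days 10 and 20 the median ratios were 0.783 for exon reads and 0.813 for intron reads, against 1.00 and 0.960. Introns held a median of 15.1% of the reads of a gene in the set and 3.69% in the other protein coding genes, but the set was less abundant, and among genes of 1 to 5 CPM the medians were 24.6% and 20.3%. More than 50% of the reads were intronic in 18 genes of the set (12.8%), against 8.33% of the other protein coding genes, without matching by abundance.

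Exon number and gene length were close to those of the other genes. The median number of exons was 5 in the set and in the other protein coding genes, and the median gene length 19883 and 20136 bp. On chromosomes 1, 2 and 3 lay 43 (30.5%), 57 (40.4%) and 32 (22.7%) of the genes, against 24.1%, 38.7% and 33.7% of the others, and 9 (6.38%, others 3.49%) lay on unplaced scaffolds. In 6 pairs the 2 genes lay within 100 kb of each other. The closest, AAEL005186 and AAEL005187 on chromosome 2, were neighbours on the plus strand 3487 bp apart, and on SF day 3 measured 2.78, 1.61 and 1.72 CPM and 46.4, 46.4 and 39.9 CPM. Whether the counting used strand is not stated in the methods or files, and 37 genes of the set overlapped a gene on the opposite strand and 7 one on the same strand.

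Copies limit a part of the set. Fewer than 50% of the reads were unique in 14 of the 141 genes (9.93%, others 5.70%), and fewer than 10% in 7. AAEL021797, on an unplaced scaffold, and AAEL024960, on chromosome 1, had 0% unique reads and gene models of the same size (1512 bp, 2 exons). They measured 5.10, 5.70 and 7.00 CPM and 5.60, 5.21 and 6.73 CPM on SF day 3, and both were among the 21 genes called lower between BF days 10 and 20, and their reads cannot be told apart. Among the 127 genes with at least 50% unique reads, 19 were called lower in that comparison.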

How the data were processed

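The authors trimmed paired reads from rRNA-depleted stranded libraries and mapped them to AaegL5.0 in CLC Genomics Workbench version 20. The deposited count columns hold whole numbers of read pairs per gene, exon and intron with no normalization, 1 file per library. The strand setting, the annotation release used for counting and the treatment of multiply mapping pairs are not stated for the mapping step. Gene reads equalled exon plus intron reads in all 19 files. CPM was computed as gene reads x 1000000 over the column sum, and the deposited RPKM column was not used.

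Total gene reads were fitted in R 4.3.3 with edgeR 4.0.16 (filterByExpr with a minimum count of 10, TMM, robust quasi-likelihood, 6 groups in 1 fit, 13 residual degrees of freedom), with FDR p-values over all 13904 genes and calls under 0.05. The members, lists and comparisons were chosen with earlier results of these data known. The named genes are the 10 with the lowest SF ratio, the 10 highest on SF day 3, up to 3 largest called changes each way between BF days, and the genes next to the ratio limit. On simulated counts for BF day 20 against day 10, 78.1% of genes with a true log2 difference of 1 and 96.0% of those with 2 were recovered among 13445 genes, with 0 in the wrong direction. The simulation gave all genes the same spread (biological coefficient of variation 0.16) and independent libraries. Recovery at the abundance of the set, or at its median log2 fold change of −0.39, was not measured.

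Depth ran from 34651820 to 56274885 pairs, which limits genes near 1 CPM most. The methods call the libraries biological replicates of pooled ovaries. In every pair of replicates the counts differed by more than sampling noise (chi-square per degree of freedom at least 15.2). Deviations of same-numbered libraries from their group means correlated at 0.114 to 0.174 between BF days 10 and 20 and at 0.124 to 0.288 between SF days 3 and 10. The counts with a replicate block are therefore given beside the others there. Calls and FDR p-values come from the fit without the block unless another setting is named. Alternatives were DESeq2 1.42.0, limma-voom 3.58.1, other scalings, no filter, exon or unique reads, a replicate block and leaving out each library. Lists of tissue and pathway genes could be applied only where the files give symbols. Of 5 such lists none had a gene in the set, since genes with a symbol were not eligible. Among 111 tested P450 and detoxification genes 0 were called in either direction between BF days 10 and 20 (edgeR), among 129 immune genes 1 lower and 2 higher, among 2 heat shock genes 0, among 7 prophenoloxidase genes 0 and among 8 germ line genes 2 lower.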

Additional observations from a re-analysis of the deposited data

Results flagged for a closer look

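In the 4 BF day 3 libraries, 1 library stood apart from the other 3 by Dixon's criterion in 4 of the 32 values examined, where chance gives about 1 in 20. AAEL011275 was at 4.02 CPM in replicate 1 beside 0.176 to 0.354 CPM in the others, with 15.7% unique reads over the series. AAEL026602 was at 9.20 CPM in replicate 3 beside 6.21 to 6.52 CPM. AAEL021738 was at 39.1 CPM in replicate 4 beside 33.9 to 34.7 CPM. The median of the 141 genes relative to SF day 3 was 0.45 on the log2 scale in replicate 3 beside 0.31 to 0.33, and that library also had the lowest intron share of the group (9.11%, against 12.2% to 13.2%). The part of the intron share in this difference was not tested.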

How the results depend on the processing

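The number of genes in the set was 87 with a ratio limit of 0.5, 253 with 0.6 and 61 with a level of at least 5 CPM, and 141 to 243 when an SF library was left out, the largest without SF day 3 replicate 2 (243) and without SF day 20 replicate 4 (227). The sets with a library left out shared 99 to 132 genes with the 141, the fewest without SF day 3 replicate 4, where 99 of 141 were shared (70.2%). With CPM after TMM scaling it was 120 genes (113 shared with the 141), with exon reads 160 (116 shared) and with unique reads 135 (126 shared). Upper-quartile scaling moved the median of all genes by more than 0.1 for BF day 20 against day 3 (from −0.13 to −0.24), and the median of the set kept its sign in all comparisons under every scaling tried.

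At an FDR threshold of 0.01 the calls in the set were 6 lower for BF day 20 against day 10 (0.345% of all tested genes), 54 lower for SF day 20 against day 3 (2.21%), 1 lower for each SF step (0.00719% each), 5 lower and 13 higher for BF against SF on day 10 (4.87% and 3.31%), and 2 lower and 15 higher on day 20 (5.65% and 3.69%). For SF day 10 against day 3, 23 were called lower by DESeq2, 2 without a count filter, 15 with the replicate block and 7 on exon reads. For SF day 20 against day 10, 8 were called by DESeq2 and 0 by limma-voom, where 57 had an unadjusted p under 0.05 in edgeR. For BF against SF on day 20, limma-voom called 2 lower. For the SF steps and for BF against SF, no share over all tested genes stands beside the counts of these alternatives. Nothing is read from them. For BF day 20 against day 10, DESeq2 called 30 lower (3.91% of all genes) and limma-voom 22 (2.301%). The replicate block changed no other count by more than 1.5 times (BF day 20 against day 10, 30). In the other comparisons made, not every same-numbered pair correlated at over 0.1 (−0.06 to 0.02 between BF days 3 and 20), and in the block fit BF day 3 replicate 3 has a term of its own and adds nothing.

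With each library left out in turn, the lower calls ran from 5 to 22 for BF day 20 against day 10 (medians −0.40 to −0.33), 89 to 95 for BF day 20 against day 3 (medians −0.98 to −0.83), 56 to 67 for BF day 10 against day 3 (medians −0.61 to −0.49), 70 to 111 for SF day 20 against day 3, 0 to 8 for SF day 10 against day 3 and 0 to 4 for SF day 20 against day 10. For BF against SF they were 11 to 18 lower and 49 to 56 higher on day 3, 4 to 8 and 15 to 29 on day 10, and 2 to 4 and 20 to 34 on day 20. For BF day 20 against day 10, 0.232% of all tested genes were called lower where the set had 5 calls, and 2.86% where it had 22. For the other comparisons the share over all genes is not given, so nothing is read from the ranges of their counts. The cause of these shifts was not tested.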
